A study of Homo sapiens with 28 samples.

Results

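Acetylation of lysine 27 on histone H3 (H3K27ac) marks active promoters and enhancers, and 759 regions of this mark were called in both vitamin D libraries of EPC2 cells and in neither library without vitamin D. EPC2 is an immortalised line of human esophageal epithelial cells. The 759 were taken from the 67183 H3K27ac regions of cells given vitamin D alone: each shared at least 1 base with a region of cells given IL-13 and vitamin D, and none with a region of cells given IL-13 alone or left untreated. Peaks on the list with no q-value were left out, and summits with the same start and end were merged into 1 region.

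The treatments were IL-13 at 100 ng/ml with vitamin D at 100 nM, vitamin D at 100 nM, IL-13 at 100 ng/ml, and no addition, each for 6 h. ChIP-seq gave 1 library per treatment for H3K27ac, H3K9ac and H3K4me3, and 1 each for the vitamin D receptor VDR with vitamin D and untreated and for STAT6 with IL-13 and untreated. RNA sequencing covered 3 samples per treatment, which were deposited as 1 RPKM value per group. With 1 ChIP library per treatment there is no replicate check on any region, so shares of regions are given with no test.

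Vitamin D acts through VDR, a nuclear receptor that pairs with RXR on DNA and recruits acetyltransferases, so acetylated histones often lie beside bound receptor. H3K9ac marks active promoters and enhancers too, and H3K4me3 mainly promoters. CYP24A1, the enzyme that breaks vitamin D down, is the best known target gene of the receptor in epithelial cells. IL-13, a cytokine of allergic inflammation, acts on epithelium by way of STAT6.

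The peak lists use the build hg19, and the bases of the regions themselves were not read here. For nearby genes, promoter sequences of RefSeq (GRCh38.p14, 250 bases before to 50 after the gene start) were read. The start window of 11 genes, set by the hg19 gene starts, held a gained region. Of these, C4orf51, KRT34, PAPPA and TBXA2R were matched in the RefSeq table, and C15orf27, DNER, FLJ42709, IFITM10, LOC100652730, NPTXR and SELM were not. Shown are PAPPA and CD14. PAPPA had a gained region at its hg19 start and more RNA with vitamin D. CD14 lay near 2 gained regions and had a VDR region of vitamin D cells over its hg19 start. Promoter sequences were matched to genes by name alone, so a printed window may lie at another start than the hg19 one. Capitals mark matches, on either strand, to TGANTCA (AP-1). Neither window held the other motifs searched. These were a GNTCA repeat (GNTCA, any 3 bases, GNTCA), a STAT6 form (TTC, any 4 bases, GAA) and a TEAD form (GGAATG). The spacing of the GNTCA repeat is shorter than that of the direct repeat that VDR binds, which was not searched. Matches of different motifs could overlap.

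CD14, chr5:140633126-140633425, minus strand: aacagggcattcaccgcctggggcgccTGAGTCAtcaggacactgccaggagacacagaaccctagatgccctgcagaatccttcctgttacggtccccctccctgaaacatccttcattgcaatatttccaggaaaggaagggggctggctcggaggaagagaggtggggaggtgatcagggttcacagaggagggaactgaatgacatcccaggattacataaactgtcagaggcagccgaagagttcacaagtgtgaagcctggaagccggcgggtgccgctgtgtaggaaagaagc
PAPPA, chr9:116153541-116153840, plus strand: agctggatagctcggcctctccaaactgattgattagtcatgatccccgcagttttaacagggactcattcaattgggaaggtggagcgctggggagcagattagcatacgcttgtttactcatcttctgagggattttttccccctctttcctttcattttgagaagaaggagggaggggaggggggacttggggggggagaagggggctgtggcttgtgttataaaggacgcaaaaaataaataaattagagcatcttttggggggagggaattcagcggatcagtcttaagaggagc

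The GNTCA repeat was in the promoters of 3 nearby genes with more RNA, which are shown with 15 bases on either side and the match in capitals.

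SERPINE2, chr2:224031541-224031583, minus strand: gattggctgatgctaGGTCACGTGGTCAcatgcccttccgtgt
RAB17, chr2:237590732-237590774, minus strand: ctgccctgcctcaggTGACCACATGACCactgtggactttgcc
APLN, chrX:129654998-129655040, minus strand: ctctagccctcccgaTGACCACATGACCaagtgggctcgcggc

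SERPINE2 encodes a serine protease inhibitor, RAB17 a small GTPase of epithelial traffic and APLN a peptide hormone. Of the 171 nearest genes with more RNA, 118 had a promoter in the RefSeq table, with 221 promoters in all. The GNTCA repeat was in 3 of these 221 promoters (1.36%), against 238 of all 35116 in the table (0.678%). TGANTCA was in 4.52% of the 221 and 7.71% of all, the STAT6 form in 5.43% and 6.44%, and GGAATG in 15.4% and 14.0%. None of the hg19 start windows of SERPINE2, RAB17 and APLN held a VDR region in either VDR library.

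The gained regions were short and shallow. Their median length was 199 bases (145 to 2084), and 733 of the 759 had a single summit. The median pileup, the number of stacked fragments at the summit, was 7 (5 to 16) in the vitamin D library. Regions called in all 4 libraries had a median length of 913 bases and a median pileup of 13 (n = 40834). The fold enrichment of the peak caller, a ratio over background which is the authors' value throughout, had a median of 4.47 with both treatments (3.19 to 24.9) and 4.62 with vitamin D alone (3.47 to 9.82). The regions were chosen by these H3K27ac calls, so the values are a description, with no test. A pileup of 7 has an exact Poisson 95% interval of 2.81 to 14.4, which covers counting error only.

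The libraries that define absence and presence differed in implied background and in the lowest pileup called, and their read depth is not known. The background level implied by pileup and fold enrichment was 1.57 with both treatments, 1.73 with vitamin D, 1.51 with IL-13 and 2.40 untreated. The lowest pileup called was 4, 5, 4 and 6 in the same libraries. The lists held 72629 regions with both treatments, 67183 with vitamin D, 69707 with IL-13 and 91881 untreated, the longest of the 4. A region that is missing from a list was not called there, which is not the same as having no acetylation.

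Many gained regions sat on the edge of acetylated chromatin that was already called without vitamin D. Of the 759, 543 (71.5%) had a region of the IL-13 or the untreated library within 1 kb, and 228 lay within 100 bases of one. Those 228 had a median fold enrichment of 4.62 (3.47 to 6.93). The 801 regions just outside the rule, which shared 1 to 100 bases with such a region, had a median of 4.62 (3.47 to 8.09). For 220 members (29.0%), the matching regions of the combination library themselves reached into a region of the IL-13 or untreated library.

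The regions lay mostly away from gene starts. By the annotation in the peak lists, 305 were intergenic, 304 intronic, 91 upstream of a gene, 40 in a promoter and 19 exonic. Promoters held 5.27% of them, against 30.3% of the regions found in all 4 libraries. The median distance to a gene start was 37876 bases, and 28 regions had a gene start within 1 kb.

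VDR was called at 156 of the 759 gained regions (20.6%) in cells given vitamin D, a library that the choice of regions did not use. A set built the same way for IL-13, called in both IL-13 libraries and in neither of the others, had VDR at 20 of 1024 regions (1.95%). Regions called in the IL-13 and untreated libraries and in neither vitamin D library had it at 34 of 4136 (0.822%). Regions of all 4 libraries had it at 4596 of 40834 (11.3%), and these are longer. Over the whole vitamin D list it was at 5981 of 67183 (8.90%), and the share in the gained set was 8.81% when the combination library was left out of the rule and 9.19% when the untreated library was. In the VDR library of untreated cells 48 of the 759 overlapped a region (6.32%), all of them among the 156, and at 47 of those 48 the fold enrichment was higher with vitamin D.

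**Figure D1:**
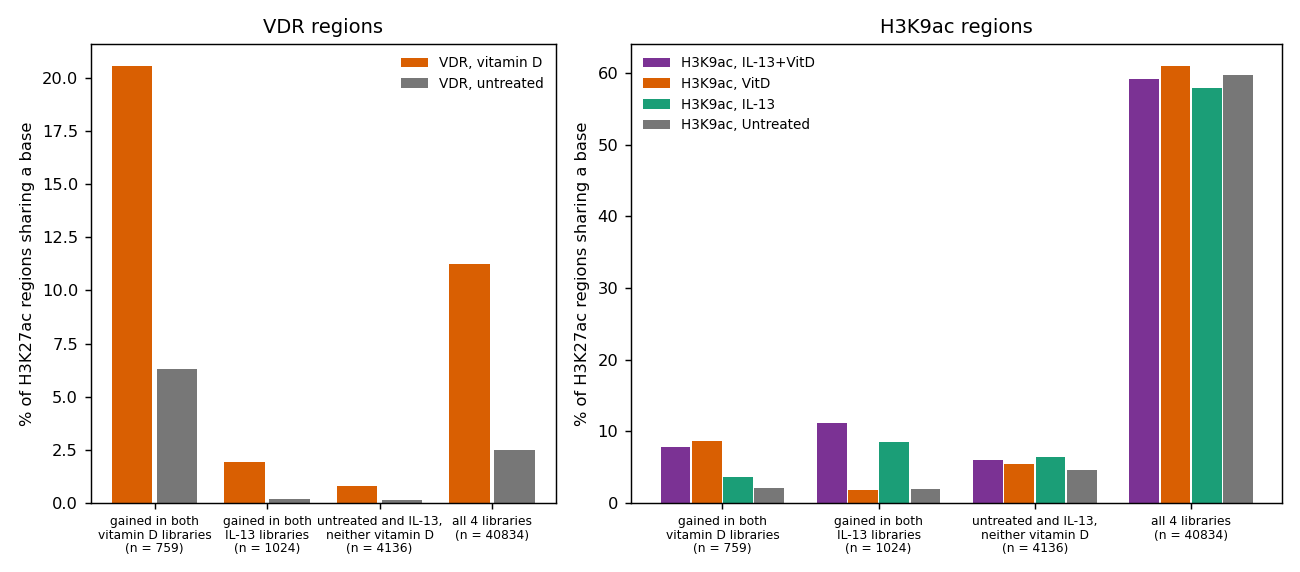
Share of H3K27ac regions, in percent, that share at least 1 base with a VDR region (left) or an H3K9ac region (right), for the gained regions and 3 comparison sets, with n under each. Bars are shares from 1 library each and carry no error bars: VDR of vitamin D cells reached 20.6% of the gained regions, and H3K9ac was on 7.77%, 8.70%, 3.69% and 2.11% of them with both treatments, vitamin D, IL-13 and no treatment.

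The VDR share rose with the strength of the gained region. It was 12 of 129 regions under a fold enrichment of 4 (9.30%), 60 of 380 from 4 to 5 (15.8%), 55 of 185 from 5 to 6 (29.7%), 20 of 49 from 6 to 7 (40.8%) and 9 of 16 at 7 or more (56.3%). Regions of all 4 libraries in the same ranges had shares of 2.06%, 2.36%, 4.13%, 5.98% and 16.3%. IL-13-gained regions stayed between 1.24% and 2.70%. The gained regions thus held VDR more often than either set in each of the 5 ranges.

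**Figure D2:**
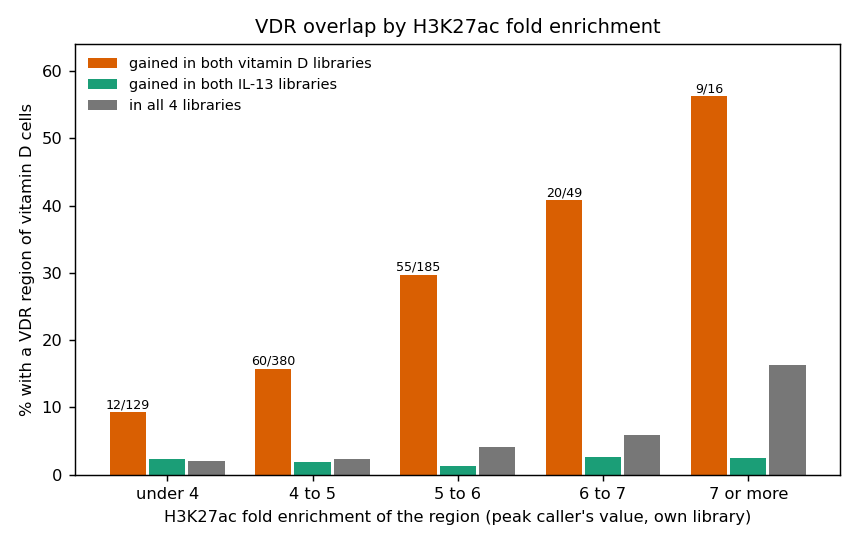
Percent of H3K27ac regions with a VDR region of vitamin D cells, by the fold enrichment of the H3K27ac region in its own library, for gained regions, IL-13-gained regions and regions of all 4 libraries. The numbers over the bars are counts of gained regions, from 12 of 129 in the lowest range to 9 of 16 in the highest.

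VDR fold enrichment at the 156 gained regions with VDR had a median of 13.9 (3.84 to 114). The 156 were longer than the other 603 gained regions, at a median of 284.5 against 186 bases, and stood alone more often: 66 of 156 (42.3%) had a region of the IL-13 or untreated library within 1 kb, against 477 of 603 (79.1%). Within 10 kb, 448 of the 759 had a VDR region (59.0%), against 27.8% of regions in all 4 libraries.

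The strongest gained region by H3K27ac in the vitamin D library, chr9:110468769-110470852 (hg19, intergenic), spanned 2084 bases with its nearest gene start, that of KLF4, 217763 bases away. KLF4 is a transcription factor of epithelial differentiation. The pileup was 16 with vitamin D (exact Poisson 95% interval 9.15 to 26.0), and fold enrichment was 8.94 with both treatments and 9.82 with vitamin D. VDR fold enrichment there was 73.6 with vitamin D and 32.0 untreated. H3K9ac was also called, at 4.09 with both treatments and 4.77 with vitamin D, and not in the other libraries. The RNA of KLF4 was lower with vitamin D (log2 fold change -0.25), at 61.2 RPKM with both treatments, 67.7 with vitamin D, 71.6 with IL-13 and 84.1 untreated in the authors' deposited tables.

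The next strongest in that library had LOC100652730 (231 bases from the region), RSPH1 (9397), SOWAHA (15363), UPP1 (21704), CYP24A1 (44160), EPAS1 (67478), KCNIP2 (97423), DUSP10 (218325) and SLC6A15 (1032313) as nearest gene start. Their fold enrichment was 3.83 to 8.94 with both treatments and 8.09 to 9.25 with vitamin D, and 7 of the 10 strongest had VDR. Over the 759 regions, Spearman's rho between the 2 fold enrichments was 0.063, a description across regions that share both libraries. The 3 without VDR were those of CYP24A1, KCNIP2 and DUSP10, which lay 254, 1174 and 901 bases from a VDR region of vitamin D cells.

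The gained region with the strongest VDR signal was a 164-base region in an intron of GLI3, a transcription factor of Hedgehog signalling, at chr7:42024510-42024673. VDR fold enrichment was 114 with vitamin D and 56.6 untreated. An intron of BTBD9 (chr6:38400167-38401175) had 83.8 and 23.0. Neither gene was called in RNA with vitamin D, with adjusted p-values of 0.905 for GLI3 and 0.062 for BTBD9 in the authors' deposited table.

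An intron of HSD17B2 held 3 gained regions between chr16:82114842 and chr16:82117303. HSD17B2 encodes a dehydrogenase that inactivates estradiol and testosterone. A VDR region with a fold enrichment of 79.5 with vitamin D reached 2 of the 3, and H3K27ac fold enrichment was 5.20 to 6.93 with vitamin D. The next region of the IL-13 or untreated library was at least 7723 bases away from each. RNA was 29.0 RPKM with both treatments, 20.7 with vitamin D, 13.0 with IL-13 and 7.02 untreated in the authors' deposited tables. In the authors' deposited tables the log2 fold change was 1.58 with vitamin D (adjusted p = 1.83e-117) and 2.02 with both (adjusted p = 5.7e-184). The level was lowest in untreated cells and higher in each treated group.

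A region of STAT6 with IL-13 touched 11 of the 759 (1.45%), against 180 of the 1024 IL-13-gained regions (17.6%). No gained region had both VDR and STAT6, and over the whole vitamin D list 365 of 67183 did (0.543%).

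H3K9ac was called at more gained regions in the libraries with vitamin D: 59 with both treatments (7.77%), 66 with vitamin D (8.70%), 28 with IL-13 (3.69%) and 16 untreated (2.11%). The totals of the 4 H3K9ac lists were close, at 52749, 53630, 50695 and 49647 regions. Among the 156 regions with VDR the counts were 17, 19, 4 and 0 in the same order, and among the 603 without VDR they were 42, 47, 24 and 16. In regions of all 4 H3K27ac libraries the shares were 59.2%, 61.0%, 57.9% and 59.7%. The order of the 4 libraries was the same in both divisions of the gained regions, with vitamin D alone first.

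H3K9ac met the same rule as H3K27ac, called in both vitamin D libraries and neither other, at 9 of the 759 (1.19%), against 872 of the 40834 regions of all 4 libraries (2.14%). H3K9ac in any library was on 136 of the 759 (17.9%) and on 31894 of the 40834 (78.1%). The rule was met at 1 of the 1024 IL-13-gained regions (0.098%). It was met at 23 of the 4136 regions called in neither vitamin D library (0.556%). The 9 gained regions lay nearest to GOLT1A, ROCK1, ARHGEF4, DNER, BCAS1, CYP24A1, LOC100652730, SOWAHA and KLF4. H3K4me3 showed little difference: it was called at 53 gained regions with both treatments (6.98%), 49 with vitamin D (6.46%), 36 with IL-13 (4.74%) and 44 untreated (5.80%).

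The largest group of gained regions lay around CYP24A1. There, 12 regions fell within 98.8 kb on chromosome 20 (hg19 52713633 to 52812383), and 6 of them had CYP24A1 as the nearest gene, 5 had BCAS1 and 1 had PFDN4. Gained regions with neighbours within 50 kb formed 16 groups of at least 3, with 59 members, and no other group had more than 4.

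The strongest of the 12, chr20:52745816-52746897, lay 44.2 kb downstream of the CYP24A1 start. Its pileup was 15 (exact Poisson 95% interval 8.40 to 24.7), and fold enrichment was 8.94 with both treatments and 9.25 with vitamin D. H3K9ac there was 4.09 with both treatments and 6.81 with vitamin D. The other 11 had fold enrichments of 3.47 to 7.51 with vitamin D, at distances from 21.7 kb upstream to 76.8 kb downstream. None of the 12 held a VDR region. The nearest VDR region of vitamin D cells lay 254 bases from the strongest and 358 to 9919 bases from the other 11.

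In the wider locus, from 40 kb upstream to 80 kb downstream of the CYP24A1 start, called acetylation covered more bases with vitamin D. The highest H3K27ac fold enrichment lay at different places in the libraries. Untreated it was 30.9, at chr20:52823944-52825557, upstream of the CYP24A1 start. The regions called there had 21.1 with both treatments, 22.5 with vitamin D and 16.5 with IL-13. In the other libraries it lay downstream of the start, at chr20:52737546-52742531 in the vitamin D library. There it was 25.6 with both treatments, 27.2 with vitamin D and 18.5 with IL-13, against 23.4 untreated. H3K27ac regions covered 42.8 kb with both treatments, 42.6 kb with vitamin D, 12.7 kb with IL-13 and 28.3 kb untreated, in 51, 41, 24 and 32 regions. Over the genome the same lists covered 52713912, 54983014, 49265118 and 85061355 bases. H3K9ac covered 18.5 kb, 20.6 kb, 3.41 kb and 3.46 kb in the same order. VDR was called in 12 regions with vitamin D, up to a fold enrichment of 111, and in 4 regions untreated, up to 50.7.

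**Figure D3:**
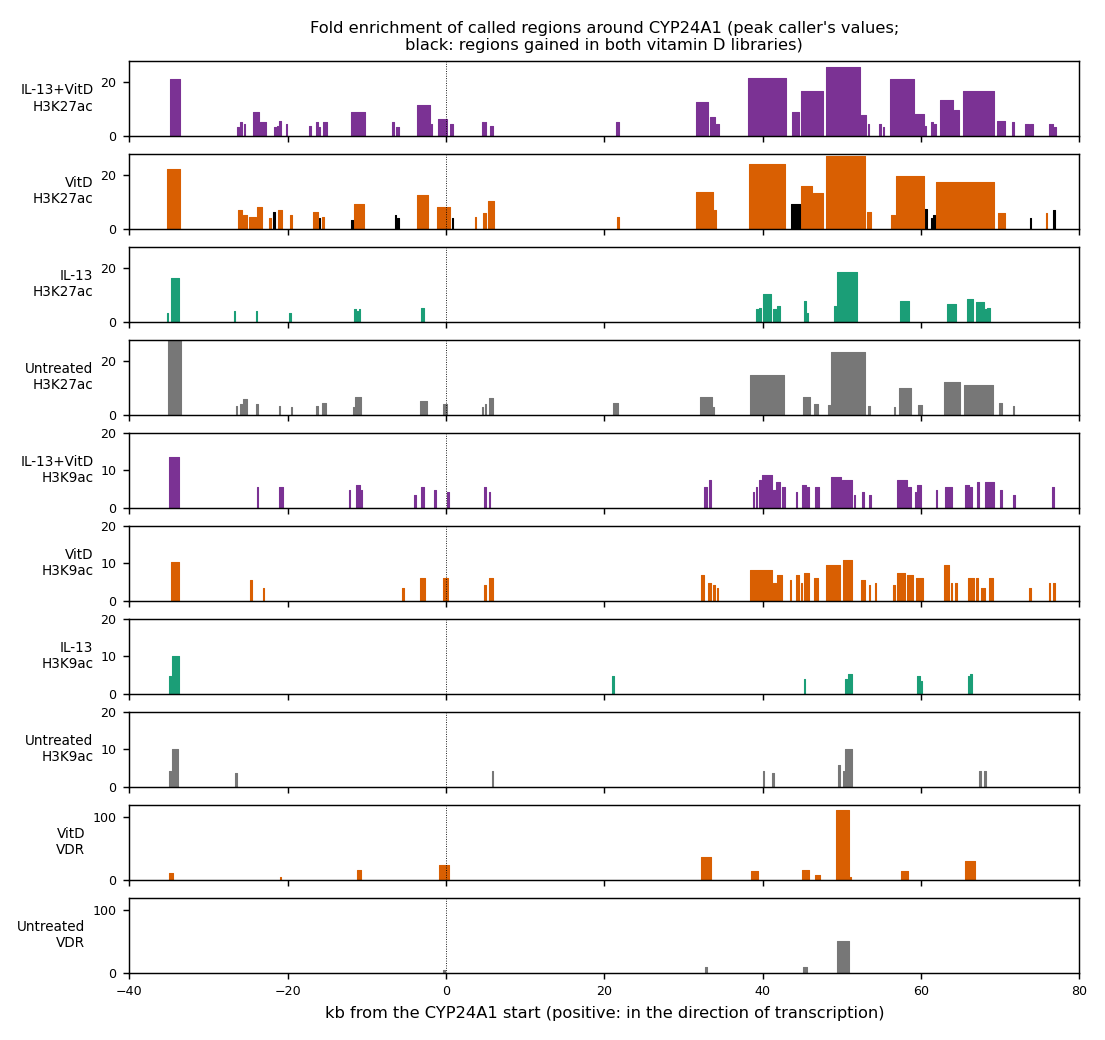
Called regions of H3K27ac, H3K9ac and VDR around the CYP24A1 start, in kb along the direction of transcription, with the height giving the fold enrichment of the peak caller. The H3K27ac axis ends below the top of the tallest untreated region, at 30.9. Black regions in the vitamin D track are the 12 gained in both vitamin D libraries, and the H3K9ac tracks hold 43 regions with both treatments and 40 with vitamin D, against 10 with IL-13 and 11 untreated.

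CYP24A1 RNA stood at 463 RPKM with both treatments, 560 with vitamin D, 0.281 with IL-13 and 0.476 untreated in the authors' deposited tables. The log2 fold change was 9.92 with vitamin D and 9.69 with both, each with an adjusted p listed as 0 in those tables. BCAS1, next to it, was under 1 RPKM in each group: 0.307, 0.407, 0.116 and 0.227 in the same order of treatments in the authors' deposited tables. PFDN4, a prefoldin subunit on the other side, had a log2 fold change of 0.34 with vitamin D in the authors' deposited table.

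Across all gained regions, 489 genes were the nearest gene start within 100 kb of 1 or more, and 380 of these were tested with vitamin D in the authors' deposited table. Of the 380, 171 were higher (45.0%) and 39 lower (10.3%) with vitamin D at an adjusted p under 0.05. Over all 15177 genes tested, 17.5% were called higher and 15.1% lower in the same table. The median log2 fold change of the 380 was 0.14, against -0.0031 over all genes tested. At least 2-fold higher were 33 of the 380 and at least 2-fold lower 2, against 189 and 69 of the 15177.

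**Figure D4:**
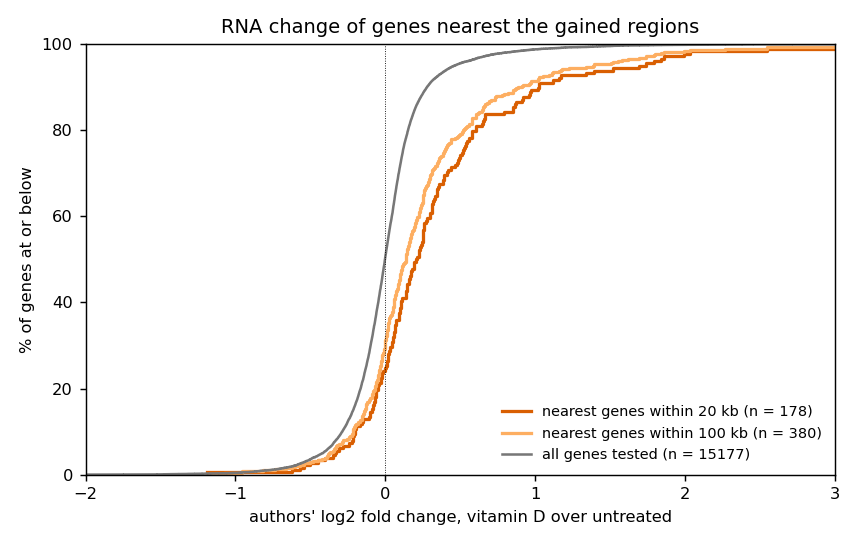
Cumulative percent of genes at or below each log2 fold change of vitamin D over untreated (the authors' value), for the nearest genes of gained regions within 20 kb (n = 178) and 100 kb (n = 380) and for all 15177 genes tested. The curves of nearest genes lie to the right of that of all genes over most of the axis, with medians of 0.21, 0.14 and -0.0031; the axis ends at 3, and CYP24A1, CD14 and DHRS9 lie beyond it.

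The share called higher with vitamin D differed between bands of distance, and did not fall steadily with it. Within 20 kb, 92 of 178 genes tested were higher (51.7%) and 13 lower (7.30%). By distance, the share called higher was 27.3% under 1 kb (6 of 22), 54.6% from 1 to 10 kb (53 of 97), 58.1% from 10 to 20 kb (36 of 62), 41.7% from 20 to 50 kb (58 of 139) and 42.2% from 50 to 100 kb (35 of 83). The share was lowest in the small group with a region at the gene start itself. With both treatments the share called higher was 40.0% within 5 kb, 40.7% from 5 to 20 kb, 40.1% from 20 to 50 kb and 34.9% from 50 to 100 kb.

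The shares also differed by whether the gained region itself held VDR, a difference that was not tested. With vitamin D, nearest genes of the 156 regions with VDR were higher in 33 of 68 tested (48.5%) and lower in 4 (5.88%), and those of the 603 without VDR were higher in 142 of 321 (44.2%) and lower in 36 (11.2%). With both treatments, 33 of 72 were higher (45.8%) and 2 lower (2.78%) near regions with VDR, against 117 of 331 higher (35.3%) and 51 lower (15.4%) near those without. Nearest genes of IL-13-gained regions were higher with vitamin D in 25.2% and lower in 25.7%. Those of regions called in all 4 libraries were higher in 19.7% and lower in 16.6%.

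With both treatments, 148 of 393 nearest genes tested were higher than untreated (37.7%) and 52 lower (13.2%), against 16.0% and 15.7% of all 15971 genes tested in the authors' deposited table. This table shares its untreated samples with that of vitamin D. With IL-13 alone, 66 of 375 were higher (17.6%) and 84 lower (22.4%), against 12.3% and 14.0% of all genes tested. Between both treatments and vitamin D alone, 87 of 374 were higher and 87 lower (23.3% each), against 16.4% and 16.9%. More of the nearest genes were thus higher than lower in the 2 comparisons of vitamin D groups with untreated cells, and not in the 2 that differ by IL-13 alone.

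Few of the gene starts themselves carried VDR. A VDR region of vitamin D cells lay in the 300-base start window of 18 of the 171 nearest genes called higher (10.5%), of 22 of all 489 nearest genes (4.50%) and of 617 of 23531 genes in the table (2.62%). In untreated cells the same counts were 4 of 171 (2.34%), 6 of 489 (1.23%) and 114 of 23531 (0.484%).

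CD14, the co-receptor for bacterial lipopolysaccharide, came after CYP24A1 in fold change. It had 216 RPKM with both treatments, 132 with vitamin D, 3.67 with IL-13 and 2.62 untreated in the authors' deposited tables, a log2 fold change of 6.21 with both and 5.57 with vitamin D. Its 2 gained regions, chr5:139986334-139986671 and chr5:139986911-139987143, lay 26784 and 26259 bases from its start, under 1 VDR region with a fold enrichment of 48.5 with vitamin D and 19.5 untreated. In the hg19 start window of CD14, VDR was 26.1 with vitamin D and was not called untreated. H3K27ac there was 5.75 with both treatments, 17.9 with vitamin D, not called with IL-13 and 10.4 untreated. The CD14 sequence printed above was matched by gene name and may lie at another start.

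DHRS9, a retinol dehydrogenase, had 3.79 RPKM with both treatments, 19.9 with vitamin D, 0.286 with IL-13 and 1.95 untreated in the authors' deposited tables. Its gained region lay 9590 bases upstream with VDR at 5.76 in vitamin D cells only. The log2 fold change was 3.31 with vitamin D (adjusted p listed as 0), 0.97 with both (adjusted p = 7.1e-15) and -2.11 with IL-13 in the authors' deposited tables, so it was higher with vitamin D and lower with IL-13.

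COL13A1, a transmembrane collagen, had 6.79, 1.03, 0.344 and 0.108 RPKM with both treatments, vitamin D, IL-13 and no treatment in the authors' deposited tables. It was called higher with IL-13 alone too, at a log2 fold change of 0.94, against 2.55 with vitamin D and 5.43 with both in those tables. Its gained region lay 4357 bases upstream, 159 bases from a VDR region.

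The remaining genes of the 10 highest were ADRA1B, FMO1, PDPN, RCSD1, IFITM10 and SEMA3B, with log2 fold changes of 1.69 to 2.26 with vitamin D in the authors' deposited table. PDPN, the membrane glycoprotein podoplanin, had 46.0 RPKM with both treatments, 44.7 with vitamin D, 16.5 with IL-13 and 12.9 untreated in the authors' deposited tables. SEMA3B, a secreted semaphorin, had 8.78, 10.3, 3.75 and 3.23 RPKM in the same order in those tables, and IFITM10 4.64, 6.98, 1.66 and 2.11. IFITM10 and SEMA3B each had a gained region within 343 bases of the gene start, and that of IFITM10 held VDR at 5.67. The values of ADRA1B, the alpha-1B adrenergic receptor, do not close over the authors' deposited tables: vitamin D over untreated plus both over vitamin D differs from both over untreated by -1.02 on the log2 scale.

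**Figure D5:**
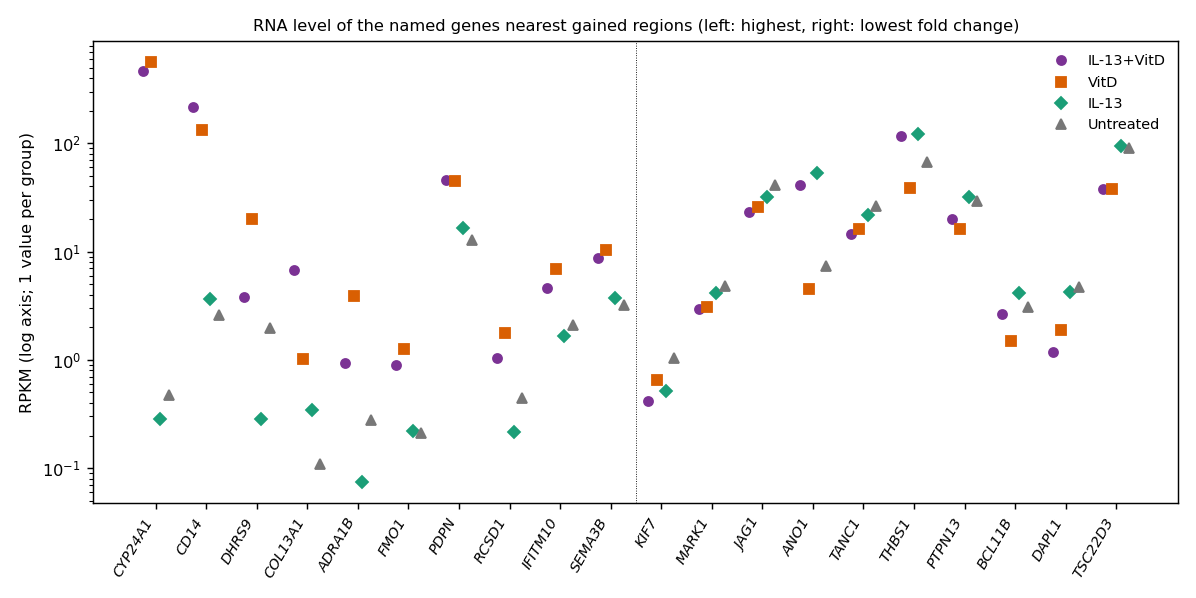
RPKM (log axis, the authors' 1 value per group of 3 samples, no error bars) of the 10 highest and 10 lowest nearest genes by log2 fold change with vitamin D, in the 4 treatments. The 10 genes on the left are higher in both vitamin D groups than untreated; on the right, ANO1 and THBS1 are below untreated with vitamin D alone and above it with both treatments.

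DNER, a transmembrane protein that acts in Notch signalling, had 3 gained regions, 2 of them at its start (chr2:230578100-230578700 and chr2:230578829-230579495). The nearest region of the IL-13 or untreated library was 39576 bases away, so H3K27ac at this start was called in the vitamin D libraries alone. H3K4me3 was called at the start in all 4 libraries, at 32.4 with both treatments, 33.1 with vitamin D, 6.53 and 15.2 at the 2 regions with IL-13 and 15.1 untreated. H3K27ac fold enrichment was 5.75 with both treatments at each and 6.36 and 4.62 with vitamin D, and H3K9ac was called at both with vitamin D. The nearest VDR region was 89938 bases from these 2, while the third, 93719 bases into the gene, lay 323 bases from one. DNER RNA was 14.9 RPKM with both treatments, 14.8 with vitamin D, 4.74 with IL-13 and 5.31 untreated in the authors' deposited tables, with a log2 fold change of 1.51 (adjusted p = 1.86e-184) with vitamin D.

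PAPPA, a protease that cleaves insulin-like growth factor binding proteins, had a gained region 332 bases upstream of its start and another 1928 bases downstream. In its hg19 start window, H3K27ac was called at 10.9 with both treatments and 4.04 with vitamin D, and also untreated, at 7.51. Its RNA was 0.489, 0.431, 0.077 and 0.104 RPKM with both treatments, vitamin D, IL-13 and no treatment in the authors' deposited tables, with a log2 fold change of 1.85 (adjusted p = 1.98e-36) with vitamin D.

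The 3 genes whose promoters held the GNTCA repeat were each called higher with vitamin D, by less than 2-fold. SERPINE2 had 52.0, 50.2, 47.1 and 46.0 RPKM with both treatments, vitamin D, IL-13 and no treatment in the authors' deposited tables. RAB17 had 0.887, 1.20, 0.599 and 0.757 RPKM in the same order in those tables, and APLN 2.45, 2.44, 1.65 and 1.90. In those tables the log2 fold changes with vitamin D were 0.18 for SERPINE2, 0.60 for RAB17 and 0.40 for APLN.

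Of a list of 40 known VDR target genes, 23 were higher and 7 lower with vitamin D among 34 tested, against 17.5% and 15.1% of all 15177 genes tested. Within 100 kb, 5 of the list were the nearest gene of a gained region: CYP24A1, CD14, NINJ1, DHRS9 and NFKBIA. That compares with 489 of the 23533 genes in the authors' deposited table. DUSP10 and KLF4, also on the list, were nearest to gained regions farther away. NFKBIA, the inhibitor of NF-kappaB, had a gained region 1071 bases upstream and a log2 fold change of 0.66 with vitamin D in the authors' deposited table. NINJ1, a membrane protein of adhesion and cell rupture, had 0.24. Of 10 genes of kinase feedback 5 were higher and 0 lower, and only DUSP5, a MAP kinase phosphatase, had a gained region within 100 kb. DUSP5 had 22.8, 26.1, 11.3 and 13.3 RPKM with both treatments, vitamin D, IL-13 and no treatment in the authors' deposited tables. DUSP10, a phosphatase of stress kinases, was on the VDR target list and not on that of kinase feedback. It was the nearest gene of 4 gained regions, the strongest 218325 bases away. Its RNA was 59.1, 69.1, 23.3 and 26.0 RPKM in the same order in those tables.

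Among genes of squamous differentiation and of the IL-13 response, 1 of 38 and 2 of 19 were the nearest gene of a gained region, all within 100 kb of it, against 489 of the 23533 genes in the authors' deposited table. Over all 15177 genes tested with vitamin D, 17.5% were higher and 15.1% lower. Of 38 differentiation genes, 10 were higher and 16 lower among 37 tested with vitamin D, and KRT13, an intermediate filament of mucosal epithelium, was the one with a gained region near. KRT13 had 114, 254, 96.7 and 201 RPKM with both treatments, vitamin D, IL-13 and no treatment in the authors' deposited tables, so it was higher with vitamin D alone and lower in both IL-13 groups. Of 19 IL-13 response genes, 5 were higher and 5 lower among 15 tested with vitamin D, and ANO1 and COL13A1 had gained regions. Of 15 basal cell genes, 3 were higher and 7 lower among 15 tested with vitamin D, and PDPN was among those with a gained region.

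The lower nearest genes were named by the same rule as the higher ones. The rule asks for 1 RPKM with vitamin D or untreated, and ADRA1B, COL13A1, FMO1 and RCSD1 reached it with vitamin D and not untreated, KIF7 untreated and not with vitamin D. The 10 lowest were TSC22D3, DAPL1, BCL11B, PTPN13, THBS1, TANC1, ANO1, JAG1, MARK1 and KIF7, with log2 fold changes with vitamin D of -1.19 to -0.55 in the authors' deposited table. None had VDR in its gained region, and 156 of all 759 gained regions did (20.6%). The gained region of ANO1 lay 148 bases from a VDR region. TSC22D3, the glucocorticoid-induced leucine zipper protein, had 38.2, 38.0, 94.5 and 90.3 RPKM with both treatments, vitamin D, IL-13 and no treatment in the authors' deposited tables. It was lower in both vitamin D groups. JAG1, a ligand of Notch, had 23.3, 26.1, 32.2 and 41.4 RPKM in the same order in those tables.

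ANO1, a calcium-activated chloride channel, and THBS1, the matrix protein thrombospondin, moved in opposite directions in the comparisons. ANO1 had 41.0 RPKM with both treatments, 4.53 with vitamin D, 53.7 with IL-13 and 7.31 untreated in the authors' deposited tables. THBS1 had 116, 38.4, 123 and 66.8 RPKM in the same order in those tables. Both were lower with vitamin D and higher in each group with IL-13 than untreated.

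Marker genes were read as a check of the cells. Of 6 epithelial markers, 1 (EPCAM) was under 1 RPKM in each group. The summed level of the 6 was 31087, 30850, 35630 and 34089 RPKM with both treatments, vitamin D, IL-13 and no treatment in the authors' deposited tables. Fibroblast markers (6 genes, 5 of them under 1 RPKM in each group) summed to 6.04, 9.82, 10.1 and 15.4 RPKM in the same order, lowest where vitamin D was given with IL-13. Leukocyte markers (6 genes, 5 under 1 RPKM) summed to 56.6, 60.6, 48.1 and 50.8 RPKM, and 4 endothelial markers together stayed under 1 RPKM. The part of these levels in the results was not tested. In bulk RNA, fewer cells of a type and less RNA per cell cannot be told apart.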

How the data were processed

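H3K27ac, H3K9ac, H3K4me3, VDR and STAT6 ChIP-seq (16 samples) and RNA-seq (12 samples) of EPC2 cells were used as deposited. The submitters' processing notes name Trim Galore, STAR, Bowtie, SAMtools and MACS2 with GRCh37 and hg19 as builds, and no versions. Each peak list holds, per the file headers, the pileup signal at the summit, the fold enrichment ratio and -log10 p and q values. The authors deposited 1 RPKM value per group of RNA samples and, per the file headers, log2 fold changes, p-values and adjusted p-values for 4 comparisons; neither their test nor whether the 3 samples were separate cultures is given in the sources used here, so the p-values may measure technical spread. One RNA table is named for IL-13 but holds vitamin D against both treatments by its header, and was used as such. RPKM and peak lists do not give read depth, so the depth behind single values is unknown; Poisson intervals on pileups cover counting error only.

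Here, peaks with no q-value were dropped, summits of equal bounds became 1 region, and overlap meant 1 shared base (python 3.11.15, pandas 2.3.3, numpy 2.4.6, scipy 1.17.1). Overlap, nearest-gene and motif steps were tested on simulated data. Genes were assigned by the nearest start to the region centre within 100 kb, with an adjusted p of 1 taken as not tested and 0.05 as the threshold. Genes were named by rule: the 10 highest and 10 lowest called genes with at least 1 RPKM with vitamin D or untreated, list genes near a region, the 5 genes with most regions (CYP24A1, BCAS1, DNER, MIR4792 and RP1), and for regions the 10 strongest by H3K27ac and by VDR. HSD17B2, PAPPA, DUSP10, KLF4, PFDN4, SERPINE2, RAB17 and APLN were named after their values were seen. One list gene near a region is not reported here. The regions and gene lists were chosen with earlier results of these data known. The search for motifs at region summits, planned on the genome of the peak lists, was not run. Alternatives were other overlaps, q-values, distances, libraries left out and thresholds.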

Additional observations from a re-analysis of the deposited data

How the results depend on the processing

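No paired analysis was possible because the deposited RNA tables hold 1 value per group and each ChIP group is 1 library; for the same reason no RNA sample could be left out. With no replicate ChIP library, a region at the caller's lowest pileup may be called in 1 library and missed in another, and the implied background differs between the lists. The number of gained regions was 759, and stayed within 1.5 times of that in 3 of 8 alternatives. It was 250 at a -log10 q of at least 5 and 10 at 10, 216 with no IL-13 or untreated region within 1 kb, 4200 with the combination library left out and 8095 with the untreated library left out. In the same 5 alternatives the regions with VDR, 156 in the report, numbered 84 (33.6%), 7 (70.0%), 90 (41.7%), 370 (8.81%) and 744 (9.19%). The share with VDR was thus higher in the stricter sets and lower where a library was left out of the rule. Without the IL-13 library it was 170 of 944 (18.0%). An alternative chosen after seeing the data, in which the matching region of the combination library reaches neither the IL-13 nor the untreated list, left 539 regions, 128 with VDR (23.7%).

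Regions with H3K9ac gained by the same rule, 9 in the report, numbered 2 with H3K9ac at a -log10 q of at least 5, and by the choice of H3K27ac regions 19 at an overlap of 50% of the shorter region, 4 at a -log10 q of 10, 3 with no region within 1 kb, 26 without the combination, 14 without the IL-13 and 189 without the untreated library.

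Nearest genes higher and lower with vitamin D, 171 and 39 in the report, were 92 and 13 within 20 kb, 393 and 109 for every gene start within 100 kb, 33 and 2 at 2-fold, 57 and 9 at a -log10 q of 5, 3 and 0 at 10, 45 and 10 with no region within 1 kb, 700 and 279 without the combination library, 973 and 613 without the untreated library, and 33 and 4 near regions with VDR. With both treatments, 148 and 52 in the report, they were 73 and 21, 322 and 176, 42 and 3, 49 and 14, 1 and 2, 44 and 12, 518 and 387, 825 and 779, and 33 and 2 in the same order. At an overlap of 50% of the shorter region 91 genes were lower with vitamin D and 96 with both. More genes were higher than lower in each of these except the set at a -log10 q of 10 with both treatments. As shares of genes tested, higher and lower with vitamin D were 45.0% and 10.3% in the report and 51.7% and 7.30% within 20 kb. They were 37.2% and 14.8% without the combination library and 28.5% and 18.0% without the untreated library, against 17.5% and 15.1% of all genes. With both treatments, the report had 37.7% and 13.2%. Without the untreated library these were 23.5% and 22.2%, against 16.0% and 15.7% of all genes. Of 26 named genes called with vitamin D, none changed direction with a pseudocount of 0.1 or 1 on the RPKM.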
